A study of Homo sapiens with 6 samples.

Results

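The lineage state of A549, a long-established lung adenocarcinoma cell line, was read from 8 transcription factors of lung and endoderm: NKX2-1, FOXA1, FOXA2, GATA6, HNF4A, SOX2, SOX9 and CEBPA. They were taken by symbol from the 60624 Ensembl genes of the deposited table, and each symbol matched 1 gene. The 3 siCEP20 samples had received small interfering RNA (siRNA) against CEP20, a protein of centrioles and centriolar satellites, and the 3 siCTR samples a control siRNA. All 6 samples were transfected A549 cells harvested after 3 days. The labels do not name the siRNA sequence, nor do they say whether the replicates were separate cultures, so the p-values measure the spread between these samples only. One label field gives the treatment as a plasmid, against the siRNA of the protocol field. Poly(A) RNA was sequenced, and levels are given as TPM, the length-corrected share of a gene in all transcripts of its library, so that levels of different genes can be compared.

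These factors set the identity of epithelia that arise from the foregut. FOXA1 and FOXA2 are pioneer factors that open chromatin in lung, liver and pancreas, GATA6 acts with them in early endoderm, and NKX2-1 marks the lung and thyroid fields and drives the surfactant genes of alveolar type 2 cells. SOX2 is typical of the conducting airway and SOX9 of the growing tips of the embryonic lung, CEBPA belongs to mature alveolar, liver and myeloid cells, and HNF4A is a nuclear receptor of liver, gut and kidney that the normal lung does not use. In lung adenocarcinoma, tumors without NKX2-1 are known to take up a gastric or hepatic program in which HNF4A and FOXA factors take part.

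Of the 8 factors, 4 were called higher in siCEP20 samples (SOX2, HNF4A, SOX9 and FOXA1) and 1 was called lower (CEBPA). FOXA2 and GATA6 had smaller differences that did not pass the fold change threshold, and NKX2-1 stayed at or near 0 TPM in every library. For a call, the adjusted p-value had to be below 0.05 and the fold change of (TPM + 1) above 1.5 or below 0.67. Of all 14778 genes that averaged 1 TPM or more, 11.2% were called higher and 4.61% lower, and 43.3% had an adjusted p-value under 0.05 in either direction. The 7 factors with enough signal to be tested all had such an adjusted p-value. In 6 of them every siCEP20 value lay above every siCTR value, which was so for 38.4% of all tested genes, and in 1 every siCEP20 value lay below, as for 17.0% of all tested genes. The median log2 fold change of the 7 was 0.68, against 0.13 for all tested genes. The 8 factors together held 82.2 to 88.0 TPM in siCTR libraries and 122 to 137 TPM in siCEP20 libraries.

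**Figure D1:**
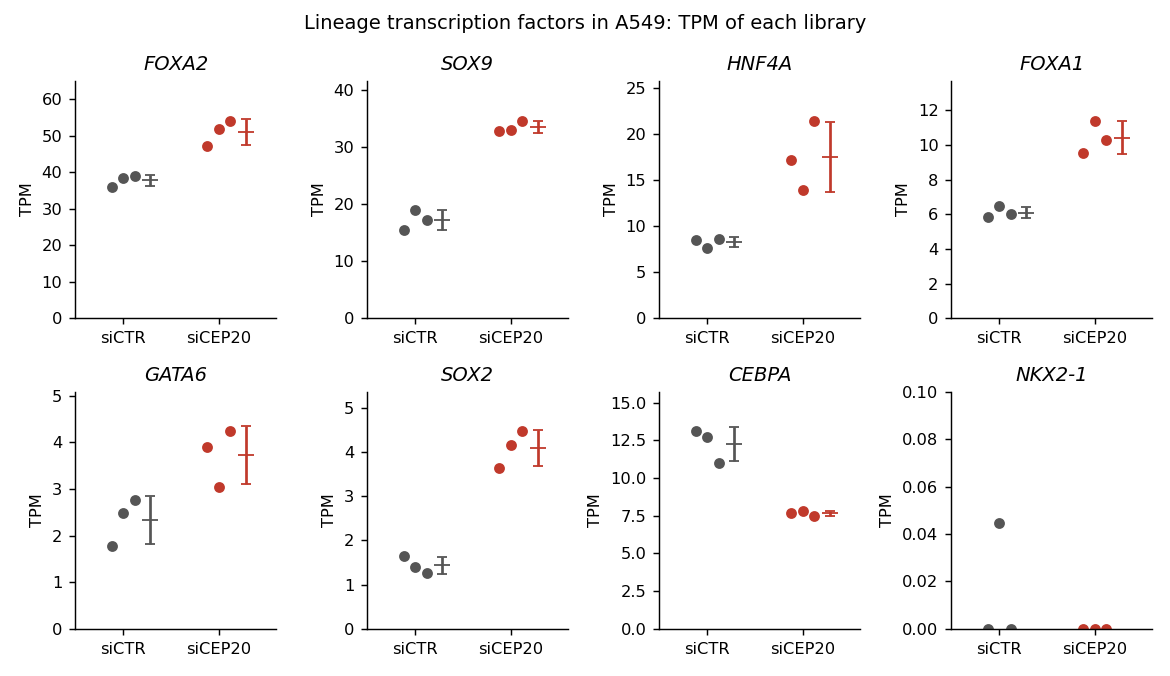
TPM of the 8 lineage factors, 1 panel a gene with its own linear axis from 0. Points are the 3 libraries of each group in order of replicate number and bars are the mean with SD, which is left out for NKX2-1. The siCEP20 points lie above the siCTR points in 6 panels and below them for CEBPA, while NKX2-1 has a single value above 0, at 0.0447 TPM.

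Some facts of the libraries bear on these values. The knockdown was visible in the table, as CEP20 was at 29.2 to 35.1 TPM in siCTR and at 15.3 to 17.3 TPM in siCEP20 libraries (log2 fold change -0.92, adjusted p = 0.000205, limma). TPM adds up to the same total in each library and holds no read depth. The 13 mitochondrially encoded protein genes were listed at 0 in every library, so a 0 in this table can stand for an expressed gene. Library siCEP20 replicate 2 stood apart in a set of liver genes, which is described with HNF4A.

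The RefSeq promoter table (GRCh38.p14), with 250 bases before and 50 after each transcript start, held 8 entries for 6 of the factors, and none for FOXA2 and SOX9. Shown here are both HNF4A entries, since the gene has 2 known promoters that a gene-level TPM cannot separate, and those of SOX2, the factor with the largest log2 fold change, and of CEBPA, the factor that fell. In all promoters, 8 short motifs were sought on both strands, those of FOX, GATA, HNF4, SOX and C/EBP factors and the CCAAT, GC and TATA boxes, each spelled out after the sequences. Capitals mark matches other than the GC box, on either strand. The sequences run 5′ to 3′ along each gene's own strand and no 2 marked matches overlap in them.

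HNF4A, upstream promoter (chr20:44355449-44355748, plus strand): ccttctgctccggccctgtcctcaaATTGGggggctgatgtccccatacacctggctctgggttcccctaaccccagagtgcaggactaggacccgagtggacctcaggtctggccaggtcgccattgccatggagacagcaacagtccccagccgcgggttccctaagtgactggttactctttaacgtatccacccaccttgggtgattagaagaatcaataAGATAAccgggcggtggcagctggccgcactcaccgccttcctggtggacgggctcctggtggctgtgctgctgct
HNF4A, downstream promoter (chr20:44400989-44401288, plus strand): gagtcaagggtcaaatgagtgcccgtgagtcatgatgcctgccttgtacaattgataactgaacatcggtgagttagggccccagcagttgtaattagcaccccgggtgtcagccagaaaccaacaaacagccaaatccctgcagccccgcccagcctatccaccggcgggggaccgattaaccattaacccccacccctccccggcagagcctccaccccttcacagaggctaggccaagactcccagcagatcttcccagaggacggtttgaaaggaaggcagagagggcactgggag
SOX2 (chr3:181711675-181711974, plus strand): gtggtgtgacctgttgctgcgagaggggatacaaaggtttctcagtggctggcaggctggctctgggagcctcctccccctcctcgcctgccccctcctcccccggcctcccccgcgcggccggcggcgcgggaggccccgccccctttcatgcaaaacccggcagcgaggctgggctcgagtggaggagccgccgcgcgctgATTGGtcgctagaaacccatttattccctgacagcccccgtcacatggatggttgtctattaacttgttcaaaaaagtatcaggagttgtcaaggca
CEBPA (chr19:33302485-33302784, minus strand): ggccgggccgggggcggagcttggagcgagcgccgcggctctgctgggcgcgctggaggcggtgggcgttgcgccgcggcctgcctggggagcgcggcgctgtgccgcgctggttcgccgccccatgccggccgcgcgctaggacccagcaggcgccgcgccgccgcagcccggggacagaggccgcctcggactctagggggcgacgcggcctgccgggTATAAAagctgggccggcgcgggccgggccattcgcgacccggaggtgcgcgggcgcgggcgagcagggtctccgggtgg

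The upstream HNF4A window held a GATA match (AGATAA) that began 26 bases before the start and a CCAAT box (spelled as its name). The downstream window held no match but a GC box (GGGCGG), which the upstream HNF4A, SOX2 and CEBPA windows held as well. The CEBPA window was 80.7% G and C and held a TATA box (TATAAA) that began 30 bases before the start, a motif found in 11.5% of the 35116 promoters of the table. The SOX2 window held a CCAAT box, as 34.6% of all promoters did. A GATA match was present in 10.3% of all promoters and a GC box in 45.0%. The SOX motif sought was ACAATG and is in 10.8% of all promoters. The C/EBP motif was TTGCNNAA and is in 10.5%. Neither was found in the entries of the 6 factors. The FOX match (TGTTTAC), present in 3.42% of all promoters, occurred in 1 of the NKX2-1 entries, and the HNF4 match (AGTCCA, in 11.8% of all promoters) in the GATA6 entry, where it shared bases with a CCAAT box. These matches describe letters in a window and do not show binding.

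FOXA2 was the most abundant of the factors. It lies on chromosome 20 of hg38 from 22580998 to 22585455 (minus strand, 2 exons in the canonical transcript). FOXA2 was at 36.0, 38.4 and 38.9 TPM in the siCTR libraries and at 47.3, 51.9 and 54.2 TPM in the siCEP20 libraries. The groups did not overlap, and the mean went from 37.7 ± 1.53 to 51.1 ± 3.51 TPM (SD, n = 3 each). The log2 fold change on the log2(TPM + 1) scale was 0.43 (standard error 0.0733, 95% interval 0.26 to 0.59, adjusted p = 0.00241, limma). Its fold change stayed under the threshold, so FOXA2 was not called, and with the libraries scaled by the median of ratios the log2 fold change was 0.28. At its siCTR mean, FOXA2 was above 72.2% of all tested genes. Its neighbour LINC00261, a long noncoding RNA of definitive endoderm known to act near FOXA2, went the other way. LINC00261 fell from 4.93 ± 0.118 to 2.54 ± 0.763 TPM (log2 fold change -0.77, adjusted p = 0.00755, limma).

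FOXA1, the second pioneer factor, lies on chromosome 14 from 37589552 to 37596059 (minus strand, 2 exons). It was at 5.82, 6.47 and 6.0 TPM in siCTR libraries and at 9.53, 11.4 and 10.3 TPM in siCEP20 libraries. Every siCEP20 value was higher than the highest siCTR value. The mean TPM in siCEP20 was 1.71 times the siCTR mean. On the log2(TPM + 1) scale FOXA1 rose by 0.68 (standard error 0.102, adjusted p = 0.00124, limma) and was called higher. This call depended on the scale between libraries: with median-of-ratios scaling the log2 fold change was 0.55 (adjusted p = 0.00204, limma) and with quantile normalization 0.51 (adjusted p = 0.00273, limma), both under the fold change threshold. FOXA1 shares exon bases with TTC6 on the opposite strand, which was at 0.0325 to 1.04 TPM, and the sources used here do not say whether strand was used in quantification.

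The balance of both FOXA factors can be read within each library, where the scale between libraries enters only through the added TPM. The log2 ratio of FOXA1 to FOXA2, with 1 TPM added to each, was -2.44, -2.40 and -2.51 in siCTR and -2.20, -2.09 and -2.29 in siCEP20 libraries. FOXA2 remained the more abundant in all 6 libraries. With 0.1 TPM added to each, the ratio was 0.33 higher in siCEP20. With 1 TPM added it was 0.26 higher (two-sided exact permutation test, p = 0.1, the floor of a test with 3 samples a side). The same p of 0.1 applies to each tested factor, whose groups were all separate. FOXA3, the third FOXA gene and chiefly a liver factor, was at 1.79, 2.55 and 1.76 TPM in siCTR and at 0.706, 0 and 1.35 TPM in siCEP20 libraries. It was called lower (log2 fold change -0.92, adjusted p = 0.0408, limma), but not without siCEP20 replicate 2, where the log2 fold change was -0.59 (adjusted p = 0.0854, limma). FOXA3 was singled out after its values were seen.

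GATA6 lies on chromosome 18 from 22169589 to 22202528 (plus strand, 7 exons). It was at 1.77, 2.49 and 2.77 TPM in siCTR libraries and at 3.90, 3.04 and 4.24 TPM in siCEP20 libraries. The lowest siCEP20 value was close to the highest siCTR value, and GATA6 had the largest standard error of the tested factors. Its log2 fold change was 0.50 (standard error 0.171, 95% interval 0.11 to 0.90, adjusted p = 0.0428, limma), not enough for a call. The ratio of its mean TPM was 1.59, so the missing call depended on the 1 TPM added to low values. With 0.1 TPM added, GATA6 was called (0.66, adjusted p = 0.0451, limma). It was called without siCEP20 replicate 2 (0.61, adjusted p = 0.0386, limma) and without siCTR replicate 3 (0.60, adjusted p = 0.0393, limma), while leaving out any 1 of the other 4 libraries gave adjusted p-values of 0.0705 to 0.125 (limma). The adjusted p was also above 0.05 with median-of-ratios scaling (0.0875), length and GC correction (0.0669) and the replicate block (0.0562). For GATA6 it was 0.113 with quantile normalization and 0.129 with no filter on low TPM (limma).

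HNF4A lies on chromosome 20 from 44355699 to 44432845 (plus strand, 10 exons), and its 2 promoters are shown above. HNF4A was at 8.52, 7.65 and 8.63 TPM in siCTR libraries and at 17.2, 13.9 and 21.5 TPM in siCEP20 libraries. The siCEP20 values were all higher and also far more scattered than the siCTR values. The mean went from 8.27 ± 0.54 to 17.5 ± 3.84 TPM (SD, n = 3 each). On the log2 scale the difference was 0.98 (standard error 0.147, 95% interval 0.64 to 1.32, adjusted p = 0.00125, limma). HNF4A was called with each scaling, at 0.84 with the median of ratios and 0.82 with quantile normalization. No gene that overlaps HNF4A had a value above 0 in any library.

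Genes of secreted liver proteins are the best known targets of HNF4A. Of 28 gut and liver genes, 14 were tested. Of these, 1 was called higher (MUC13, a gut mucin, log2 fold change 0.66) and 0 lower, against 11.2% and 4.61% of all tested genes. The median of the 14 log2 fold changes was -0.33. MUC13 was not called with median-of-ratios scaling (0.54). Without siCEP20 replicate 2 the median of the 13 genes then tested was -0.10. One gene had an adjusted p-value under 0.05 (limma). AGR2, a disulfide isomerase of mucous cells, was at 258 ± 39.3 TPM in siCTR and 212 ± 16.5 TPM in siCEP20. CPS1, a urea cycle enzyme known from tumors that lack NKX2-1 or LKB1, was at 27.2 ± 2.66 and 26.0 ± 1.36 TPM. RBP4, the plasma carrier of retinol, was at 11.6 ± 1.65 and 10.3 ± 1.41 TPM. None of these 3 passed the threshold.

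Within this list, siCEP20 replicate 2 was unlike the other 5 libraries. ALB, which encodes serum albumin, was at 6.62, 13.9 and 11.6 TPM in siCTR and at 9.89, 0 and 11.5 TPM in siCEP20 libraries. AFP, a fetal protein of the albumin family, was at 0.822 TPM in siCEP20 replicate 2 and at 3.78 to 6.64 TPM elsewhere. For 8 genes (AFP, AHSG, ALB, APOA1, APOA2, APOB, FABP1 and SERPINA1) this library held less than 0.25 times the lowest other value. Together these 8 made up 1.47 TPM there and 20.8 to 36.8 TPM in the other 5 libraries. AMBP and RBP4, also liver products, were at 6.90 and 9.52 TPM in that library and so were not absent from it. Whether RNA from other cells had a part in the liver gene, FOXA3 or HNF4A values of any library was not tested. HNF4A, although lowest there among siCEP20 libraries, was still above all siCTR values. Without siCEP20 replicate 2, the log2 fold change of HNF4A was 1.13 (adjusted p = 0.00112, limma) and that of ALB 0.05 (adjusted p = 0.898, limma). The liver genes of this section other than those with the lowest p-values or highest levels were picked after their values were seen.

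**Figure D2:**
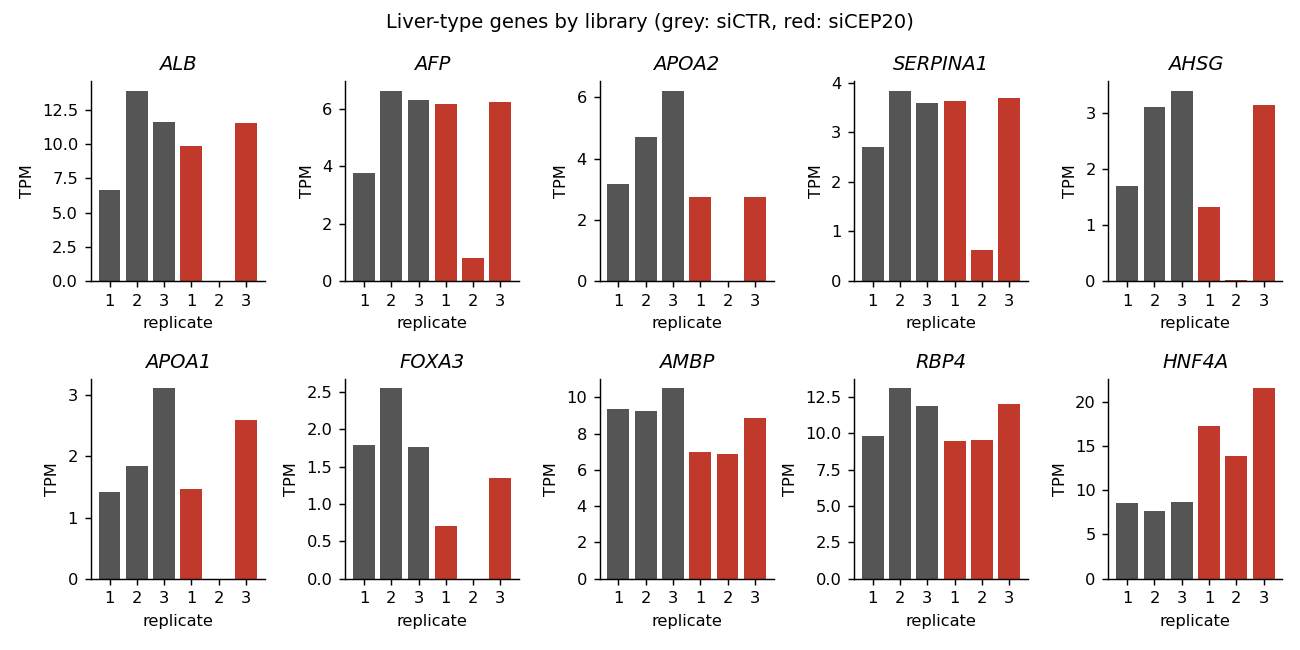
TPM by library of 8 liver products, FOXA3 and HNF4A, on linear axes from 0, with siCTR in grey and siCEP20 in red and the replicate number below each bar. ALB, APOA1, APOA2 and FOXA3 were listed at 0 in siCEP20 replicate 2, while AMBP, RBP4 and HNF4A were present in all 6 libraries.

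SOX9 was the second most abundant factor. It lies on chromosome 17 from 72121020 to 72126416 (plus strand, 3 exons). SOX9 was at 15.4, 18.9 and 17.2 TPM in siCTR libraries and at 32.7, 33.0 and 34.6 TPM in siCEP20 libraries. The 2 groups were far apart relative to their spread. The mean TPM was 17.2 ± 1.76 and 33.4 ± 1.00 (SD, n = 3 each), so SOX9 rose by 0.93 on the log2 scale (standard error 0.0875, 95% interval 0.73 to 1.13). It had the smallest adjusted p of the factors, 0.000162 (limma), and its log2 fold change ran from 0.78 to 0.99 over the alternatives tried.

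SOX2 lies on chromosome 3 from 181711925 to 181714436 (plus strand) as a single exon inside SOX2-OT, which was listed at 0 in every library. SOX2 was at 1.65, 1.41 and 1.27 TPM in siCTR libraries and at 3.65, 4.15 and 4.47 TPM in siCEP20 libraries. Even the lowest siCEP20 value was above the highest siCTR value. Its log2 fold change of 1.06 (standard error 0.142, 95% interval 0.73 to 1.38, adjusted p = 0.000771, limma) was the largest of the factors, and 2.48% of all tested genes had a larger one in either direction. The mean TPM was 2.83 times that of siCTR, but SOX2 remained scarce. Without siCEP20 replicate 2 HNF4A had a larger log2 fold change than SOX2, 1.13 against 1.05. At its siCTR mean SOX2 was above only 7.55% of tested genes. Because 1 was added to low values, the log2 fold change was 1.44 with a pseudocount of 0.1.

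SOX9 and SOX2 mark distal and proximal lung in the embryo, so their ratio was followed within libraries. The log2 ratio of SOX9 to SOX2 was 2.63, 3.04 and 3.00 in siCTR and 2.86, 2.72 and 2.70 in siCEP20 libraries. The groups overlapped, with a difference of -0.13 (two-sided exact permutation test, p = 0.4), which was -0.26 without siCTR replicate 1 and -0.06 without siCTR replicate 2. The overlap depended on the 1 TPM added to the low SOX2 values. With 0.1 TPM added, the ratio was 3.14 to 3.66 in siCTR and 2.92 to 3.13 in siCEP20 libraries, with no overlap and a difference of -0.48 (two-sided exact permutation test, p = 0.1).

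CEBPA was the factor that fell. It is a single exon on chromosome 19 from 33299934 to 33302534 (minus strand). CEBPA was at 13.1, 12.7 and 11.0 TPM in siCTR libraries and at 7.69, 7.82 and 7.50 TPM in siCEP20 libraries. The siCEP20 values lay close together and all below the siCTR values. The mean went from 12.3 ± 1.13 to 7.67 ± 0.158 TPM (SD, n = 3 each), 0.626 times the siCTR level. The log2 fold change was -0.61 (standard error 0.0959, 95% interval -0.83 to -0.39, adjusted p = 0.00158, limma). The call was near the fold change threshold and was lost without siCTR replicate 1 (-0.56, adjusted p = 0.00661, limma), while scaling by the median of ratios gave -0.75. CEBPA-DT, the noncoding RNA that starts next to it, was at 1.35 ± 0.359 TPM in siCTR and 1.39 ± 0.0616 TPM in siCEP20. CEBPA was also the factor with the highest GC content, 65.9% of its canonical transcript. With transcript length and GC content corrected for by a loess fit within libraries, the log2 fold change was -0.61. Whether GC content had a part in the CEBPA values was not tested.

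NKX2-1, on chromosome 14 from 36516392 to 36521149 (minus strand, 3 exons), was listed at 0 in 5 libraries and at 0.0447 TPM in siCTR replicate 2. It was not tested. Its neighbours SFTA3 and NKX2-1-AS1, which overlap it, were listed at 0 in every library. MBIP, a gene beside it, was expressed at 12.4 ± 2.02 TPM in siCTR and 20.3 ± 2.92 TPM in siCEP20, and was called higher (log2 fold change 0.66, adjusted p = 0.00595, limma). That call was not made with median-of-ratios scaling or without siCEP20 replicate 2.

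**Figure D3:**
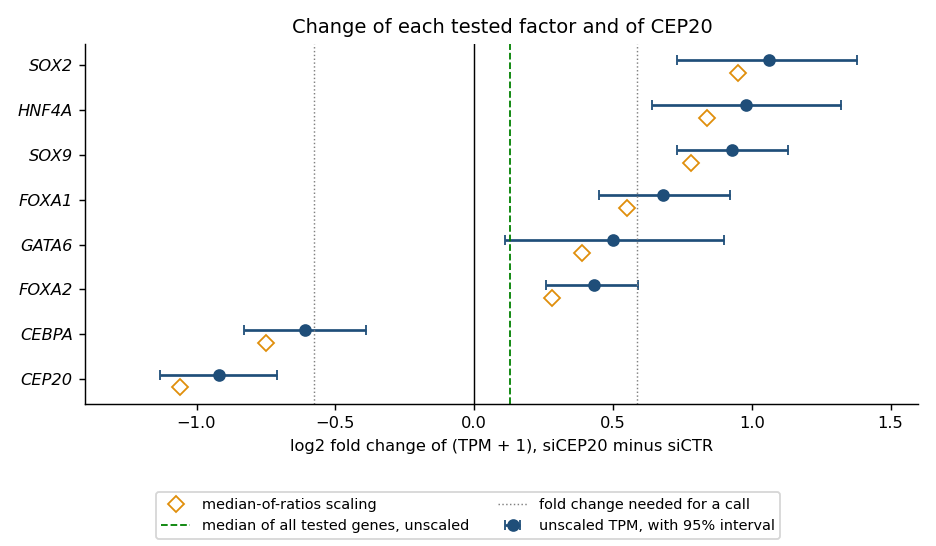
Log2 fold change of (TPM + 1), siCEP20 minus siCTR, for the 7 tested factors and CEP20. Filled circles with 95% intervals are unscaled TPM, open diamonds the values after median-of-ratios scaling, dotted lines the fold changes needed for a call and the dashed line the median of all tested genes, 0.13. SOX2, HNF4A and SOX9 lie beyond the upper dotted line on both scales, FOXA1 on the unscaled scale alone, and CEBPA beyond the lower line on both.

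The order of the levels changed between the groups. In siCTR libraries it ran FOXA2, SOX9, CEBPA, HNF4A, FOXA1, GATA6, SOX2 and NKX2-1, and the ranges of neighbours in this order did not overlap. In siCEP20 libraries it ran FOXA2, SOX9, HNF4A, FOXA1, CEBPA, SOX2, GATA6 and NKX2-1. CEBPA thus passed from rank 3 to rank 5, below HNF4A and FOXA1. SOX2 (3.65 to 4.47 TPM) and GATA6 (3.04 to 4.24 TPM) overlapped in siCEP20 libraries, so the order of these 2 is not resolved there.

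**Figure D4:**
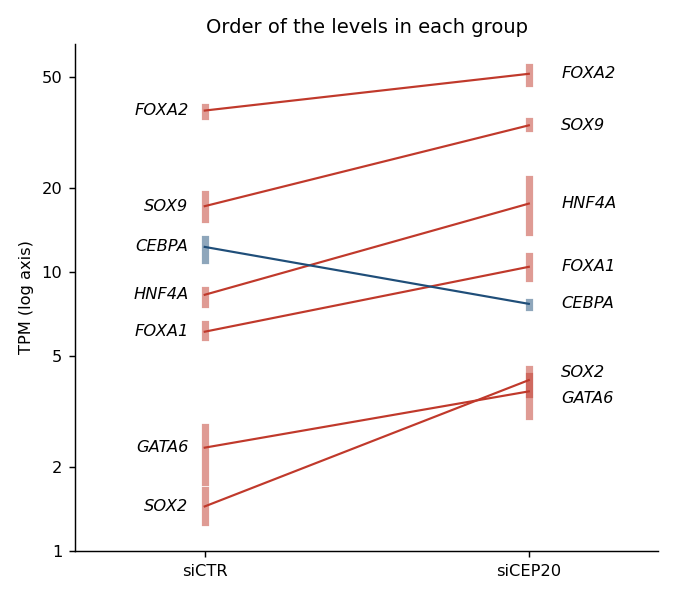
TPM on a log axis of the 7 tested factors in siCTR and siCEP20, where lines join the group means, thick bars span the lowest to the highest of 3 libraries, and red and blue mark higher and lower means in siCEP20. CEBPA crosses HNF4A and FOXA1, and SOX2 reaches GATA6.

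Paralogs of the factors were followed next. Of 29 such genes 18 were tested, 4 were called higher and 1 lower (FOXA3), against 11.2% and 4.61% of all tested genes, and the median of their log2 fold changes was 0.36. CEBPD, an acute phase relative of CEBPA, rose from 44.5 ± 0.201 to 78.6 ± 4.17 TPM (log2 fold change 0.81, adjusted p = 7.33e-05, limma). CEBPB, the most abundant member of that family, was at 599 ± 29.7 and 722 ± 32.9 TPM, and CEBPG, a partner of ATF4, at 97.2 ± 4.77 and 75.7 ± 4.73 TPM. Neither passed the fold change threshold. Members of the C/EBP family thus had log2 fold changes of both signs, 0.81 for CEBPD and 0.27 for CEBPB against -0.61 for CEBPA and -0.36 for CEBPG.

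Among SOX and GATA genes, SOX12 rose from 35.4 ± 1.29 to 64.6 ± 3.62 TPM and SOX4 from 17.1 ± 1.54 to 29.3 ± 1.24 TPM, both factors of the SoxC group. Their log2 fold changes were 0.85 and 0.75 (adjusted p = 8.28e-05 and 0.000392, limma). GATA3, a factor of luminal epithelia and T cells, rose from 10.1 ± 1.58 to 19.5 ± 1.95 TPM (log2 fold change 0.89, adjusted p = 0.000991, limma). SOX12 overlaps NRSN2-AS1, at a mean of 14.7 TPM, on the opposite strand. With median-of-ratios scaling 4 paralogs were again called higher and 1 lower.

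Other transcription factors of endoderm and lung epithelium formed the next list. Of 34 genes 19 were tested, 9 were called higher and 0 lower, against 11.2% and 4.61% of all tested genes, and the median log2 fold change was 0.57. At an adjusted p-value under 0.05 alone, 14 were higher and 1 lower (limma). With median-of-ratios scaling 5 were called higher. FOXP4, a forkhead factor of lung epithelium, rose from 12.2 ± 0.723 to 36.0 ± 2.41 TPM, with a log2 fold change of 1.49 (adjusted p = 3.12e-05, limma) that exceeded that of every one of the 8 factors. FOXP4-AS1 overlaps it on the opposite strand at a mean of 2.05 TPM.

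ELF3, an epithelial ETS factor, rose from 88.8 ± 4.85 to 142 ± 6.37 TPM, and KLF5, a factor of gut and airway epithelium, from 46.7 ± 6.35 to 78.0 ± 6.47 TPM. ELF3 was not called with median-of-ratios scaling. ETV4 and ETV5, which act downstream of FGF signals at the lung tips, were at 127 and 79.1 TPM in siCTR and at 145 and 74.9 TPM in siCEP20, with no call.

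Marker genes of lung cell types were followed as well. The counts of this and the following short lists stand beside 11.2% called higher and 4.61% called lower among all tested genes. Of the alveolar type 2 markers, SFTPA1, SFTPA2, SFTA2 and SFTA3 were listed at 0 in every library and SFTPB, SFTPC, SFTPD and SLC34A2 stayed under 1 TPM. Among the 7 tested genes of that list the median change was 0.23 on the log2 scale, with 2 called higher and 1 lower. With median-of-ratios scaling 2 were called higher and 2 lower, and without siCEP20 replicate 2 a total of 4 were called. MUC1, a membrane mucin, rose from 2.45 ± 0.166 to 8.11 ± 1.46 TPM (log2 fold change 1.39, adjusted p = 0.000209, limma), and CTSH, a protease that trims surfactant protein, by 0.82 on the log2 scale. A gene on the same strand, ENSG00000273088, overlaps MUC1 at a mean of 4.2 TPM. LAMP3, a lamellar body protein, fell from 3.02 ± 0.715 to 1.25 ± 0.265 TPM (adjusted p = 0.00789, limma). ABCA3, the lipid pump of lamellar bodies, was at 17.4 and 20.5 TPM without a call, and LPCAT1, an enzyme of surfactant lipid synthesis, at 29.0 and 40.6 TPM.

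All 3 tested airway secretory genes were called higher. MUC5B rose from 2.24 ± 0.187 to 6.05 ± 0.863 TPM (log2 fold change 1.12, adjusted p = 0.000472, limma) and MUC5AC from 3.92 ± 0.0713 to 6.82 ± 0.309 TPM, both gel-forming mucins. SPDEF, the factor of goblet cells, went from 0.686 ± 0.0599 to 2.08 ± 0.368 TPM. The defining club cell genes SCGB1A1, SCGB3A1 and SCGB3A2 were listed at 0 in every library. The summed level of the 10 genes was 6.79 to 7.01 TPM in siCTR and 14.4 to 16.2 TPM in siCEP20 libraries. With median-of-ratios scaling MUC5AC was not called.

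The alveolar type 1 list had 2 of 6 tested genes called higher and 0 lower, against 11.2% and 4.61% of all tested genes. CAV1, the caveola protein, rose from 204 ± 26.5 to 352 ± 41.2 TPM and CAV2 from 89.2 ± 15.0 to 133 ± 5.40 TPM, while HOPX, AQP5 and CLIC5 were listed at 0 in every library. CAV2 was not called without siCEP20 replicate 2 or with median-of-ratios scaling. Both tested basal cell genes fell. KRT15 went from 5.80 ± 0.664 to 1.95 ± 0.0966 TPM (log2 fold change -1.20, adjusted p = 0.000265, limma) and S100A2 from 6.63 ± 0.668 to 3.90 ± 0.769 TPM, while KRT5, KRT6A and DSG3 were listed at 0 in every library. TP63, the basal cell factor, named after its values were seen, was called higher at 0.993 ± 0.158 and 2.78 ± 0.288 TPM.

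Of the neuroendocrine list, CHGB, a granin of secretory granules, rose from 21.0 ± 0.799 to 37.4 ± 2.65 TPM, the 1 call among 3 tested genes. SYP and SYT1, both of synaptic vesicles, had log2 fold changes of -0.45 and 0.38 without a call. SYP was called lower with median-of-ratios scaling (-0.58) and without siCEP20 replicate 2 (-0.59, adjusted p = 0.0101, limma). NEUROD1, a neuroendocrine factor from the list of other factors, was listed at 0 in every library. Markers of blood, endothelial and stromal cells were few: 11 of 14 stayed under 1 TPM in every library, among them PTPRC, PECAM1, COL1A2 and DCN. COL1A1 (5.52 ± 0.333 to 18.9 ± 1.15 TPM) and CD68 (18.9 ± 3.97 to 33.8 ± 10.0 TPM) were called higher, and the list summed to 22.0 to 30.1 TPM in siCTR and 49.6 to 64.9 TPM in siCEP20 libraries. CD68 shares its locus with ENSG00000264772 on the same strand (mean 22.9 TPM) and ENSG00000233223 on the other (mean 20.5 TPM). These are bulk samples, in which a change in the number of cells of a type and a change in RNA per cell cannot be told apart.

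**Figure D5:**
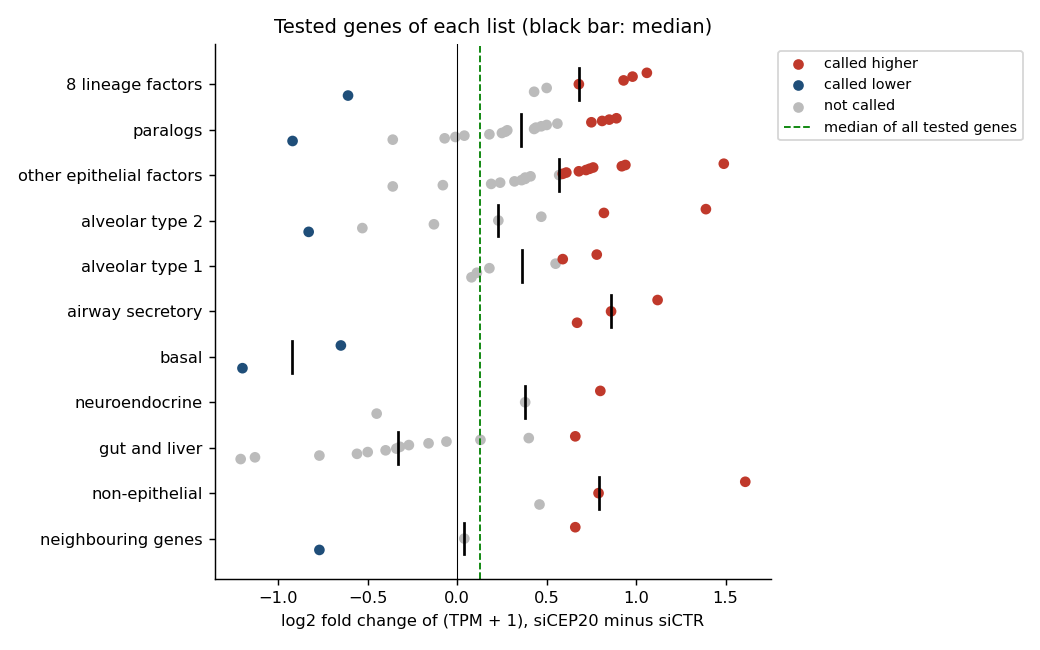
Log2 fold change of (TPM + 1), siCEP20 minus siCTR, of each tested gene in 11 lists, 1 row a list, with the list's median as a black bar and the median of all tested genes, 0.13, as a dashed line. Red points were called higher, blue lower and grey not called. The median of the lineage factors is 0.68, that of the airway secretory genes 0.86 and that of the gut and liver genes -0.33, or -0.10 without siCEP20 replicate 2.

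For each tested factor the protein-coding genes with the most similar profile were found by the root mean square distance of log2(TPM + 1), centred on the mean of the 6 libraries. Nearest to FOXA1 were SLC39A8 (distance 0.0241) and VOPP1 (0.0279), and nearest to FOXA2 were BAIAP2L1 (0.0178) and RAB7A (0.0187). GATA6 was nearest to ARHGAP11B (0.0562) and RPRD2 (0.0576). SOX9 was nearest to ZKSCAN2 (0.0344) and MESD (0.0435), and SOX2 to ELMO1 (0.0538) and PID1 (0.0646). The closest profiles to that of CEBPA were DTD1 (0.0264) and AAMP (0.0357), which fell by 0.60 and 0.63 on the log2 scale. HNF4A had the most distant nearest profiles, DNAAF8 (0.0805) and UNC5D (0.0975). None of the 8 factors was among these genes.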

How the data were processed

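RNA-seq libraries of 3 siCEP20 and 3 siCTR samples of A549 cells were analysed. According to the submitters' notes and the methods, reads were trimmed with fastp 0.20.1, aligned to hg38 with HISAT2 2.1.0 and quantified with StringTie 2.0. The authors deposited TPM per Ensembl gene, with no counts, so depth is unknown and precision rests on the 3 replicates. The annotation release is not given in the sources used here. Symbols and coordinates came from GENCODE release 44 (99.58% of IDs matched) and promoter sequences from RefSeq (GRCh38.p14).

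The authors' test needs counts. Here genes that averaged 1 TPM or more were compared as log2(TPM + 1) with limma 3.58.1 in R 4.3.3 (mean-variance trend in eBayes), unscaled and without a replicate term, with Benjamini-Hochberg adjustment over all tested genes. For a call, adjusted p had to be below 0.05 and the fold change above 1.5 or below 0.67. Single values were compared by two-sided exact permutation. The fit was tested on simulated data. Members and lists were chosen with earlier results of these data known. Genes named were the 8 factors and CEP20, up to 4 tested genes of each list with the smallest adjusted p and up to 3 with the highest mean, markers at or near 0, overlapping genes and the 2 nearest profiles per factor. Others are said to be chosen later. Some genes of the lists and a motif are not reported here, although the counts include those genes.

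The results were recomputed with 0.1 as pseudocount, with no filter or one at 5 TPM, with replicate number as a block, after quantile normalization or median-of-ratios scaling, with no trend in eBayes, after a loess correction (span 0.5) for transcript length and GC content within libraries, on protein-coding genes alone, without a fold change threshold, and with each library left out. Tables and plots were made in Python 3.11.15 (matplotlib 3.10.9, scipy 1.17.1, pandas 2.3.3).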

Additional observations from a re-analysis of the deposited data

How the results depend on the processing

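Over the alternatives, 118 fold changes of the 7 tested factors and CEP20 were recomputed, and none changed sign. Of these, 112 stayed on the same side of the call threshold, 3 lost a call and 3 gained one. FOXA1 lost its call with median-of-ratios scaling (0.55) and quantile normalization (0.51), and CEBPA without siCTR replicate 1. GATA6 gained a call with a pseudocount of 0.1 (0.66) and without siCTR replicate 3 or siCEP20 replicate 2. With 1 library left out, GATA6 ran from 0.38 to 0.61 and CEBPA from -0.68 to -0.56, and the number of factors called lower from 0 to 1. For NKX2-1 the value without the filter was -0.02 (adjusted p = 0.633, limma).

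The number of all genes called higher was 894 with median-of-ratios scaling, 923 with quantile normalization and 4457 without the fold change threshold, against 1659. Called lower were 1103 with median-of-ratios scaling and 1944 without the fold change threshold, against 682. Median-of-ratios scaling moved the median change over all tested genes from 0.13 to 9.42e-05 on the log2 scale. With it, 5 of the other epithelial factors, 1 alveolar type 1 gene, 2 neuroendocrine genes, 0 gut and liver genes and 1 gene of the neighbours were called. The difference in the SOX9 to SOX2 ratio was -0.48 with a pseudocount of 0.1. Without siCEP20 replicate 2, an alternative chosen after seeing the data, 1 alveolar type 1 gene, 2 neuroendocrine genes and 1 neighbour were called. The cause of these shifts was not tested.

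Replicate numbers are shared by both groups. The correlations of deviations from the group means were 0.157, -0.0614 and -0.0623 for same-numbered libraries. For libraries with different numbers they ran from -0.121 to 0.17. With 3 libraries a group, such correlations cannot decide whether the numbers pair the samples. With the replicate block 1654 genes were called higher and 694 lower, and the calls of the 8 factors were the same. TPM carries no depth, so the counting error of low genes such as SOX2 and GATA6 cannot be estimated.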
